A study of Mus musculus with 9 samples.

Results

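This account follows 10 genes of iron uptake, storage and export in mouse megakaryocyte-erythroid progenitors (MEP), the bone marrow cells that give rise to red cells and to platelet-forming megakaryocytes. The genes are Tfrc, Tfr2, Slc11a2, Slc25a37, Steap3, Fth1, Ftl1, Slc40a1, Ncoa4 and Hmox1, taken by symbol from a count table of 17769 genes, and all 10 were found there and passed the filter on low counts. RNA was sequenced from 9 libraries of cells sorted by flow cytometry, 3 per group, from mice on a C57BL/6N background that had received 5 daily tamoxifen injections. VF mice (SclCre;V617F) and WT controls were sampled 12 weeks after tamoxifen, and E12 mice (SclCre;Exon12) after 6 weeks. V617F and exon 12 changes are activating mutations of Jak2, the kinase that passes on the erythropoietin signal, and SclCre is a recombinase driven by sequences of Scl, a gene of blood stem and progenitor cells. Whether WT mice carried SclCre, and whether the libraries of a group come from separate mice, is not stated in the labels, so the p-values measure the spread between these libraries, which may be technical. E12 differs from both other groups in time as well as genotype. The sample descriptions hold a second number beside the replicate number, of unstated meaning, which lies in another range for WT than for VF and E12, and in a comparison with WT that range and the genotype cannot be told apart.

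Erythroid precursors are the body's main users of iron, which they need for the heme of hemoglobin. Transferrin carries iron in plasma, transferrin receptor 1 (Tfrc) brings it into endosomes, Steap3 reduces it there, Slc11a2 (DMT1) moves it to the cytosol and Slc25a37 (mitoferrin 1) moves it into mitochondria. What is not used is stored in ferritin shells of heavy (Fth1) and light (Ftl1) chains, Ncoa4 carries ferritin to the lysosome when iron is to be released, and Slc40a1 (ferroportin) is the exporter. Cells match these proteins to their iron through iron-responsive elements, short RNA hairpins bound by the regulatory proteins Aco1 and Ireb2. A hairpin before the coding sequence blocks translation when iron is scarce, and hairpins after it keep the mRNA from being degraded.

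The hairpins are shown because they are known to tie the mRNA level or the translation of the transcripts that hold them to iron. A search of the members' GENCODE M21 transcripts (GRCm38) asked for a C, 5 bases, the loop CAGNGN and 5 bases that pair with the first 5, with G-T pairs allowed, on the transcript strand. It found 5 sites in the 3' UTR of Tfrc and 1 each in the 5' UTR of Fth1, Ftl1 and Slc40a1. Each site is given for 1 transcript, and how many other transcripts of the gene hold it was not counted (4 were searched for Slc40a1). Gene counts do not separate transcripts with a site from those without. They are written 5' to 3' in DNA letters, with the bulged C and the loop in capitals. The sites of Tfrc lie on the plus strand at chr16:32631160-32631189, chr16:32631219-32631248, chr16:32631598-32631627, chr16:32631663-32631692 and chr16:32631710-32631739, in that order. The site of Fth1 is at chr19:9982732-9982761 (plus strand), that of Ftl1 at chr7:45459778-45459807 (minus strand) and that of Slc40a1 at chr1:45925464-45925493 (minus strand).
Tfrc site 1: atttatCagtgaCAGAGTtcactataaata
Tfrc site 2: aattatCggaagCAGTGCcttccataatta
Tfrc site 3: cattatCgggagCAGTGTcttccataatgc
Tfrc site 4: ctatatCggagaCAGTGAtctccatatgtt
Tfrc site 5: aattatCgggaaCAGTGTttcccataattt
Fth1: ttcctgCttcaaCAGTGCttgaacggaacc
Ftl1: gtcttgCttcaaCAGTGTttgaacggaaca
Slc40a1: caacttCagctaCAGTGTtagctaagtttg

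The same pattern with 4 of 5 pairs occurred in the 3' UTR of Slc11a2 at chr15:100395152-100395181 (minus strand) and in a long GENCODE isoform of Steap3 at chr1:120226111-120226140 (minus strand), which lies outside the RefSeq gene. The first is shown because Slc11a2 isoforms with and without this end are known, and gene counts cannot tell them apart.
Slc11a2: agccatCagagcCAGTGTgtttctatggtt
No site with 4 or more pairs was found in Tfr2, Slc25a37, Ncoa4 or Hmox1, which says only that these letters are not in the transcripts searched. Of 15579 genes, 0.481% had the full pattern in the 5' UTR of the longest coding transcript (median UTR 179 bases) and 1.92% in the 3' UTR (median 1037 bases). A match is a description of the letters and not a measured binding site.

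**Figure D1:**
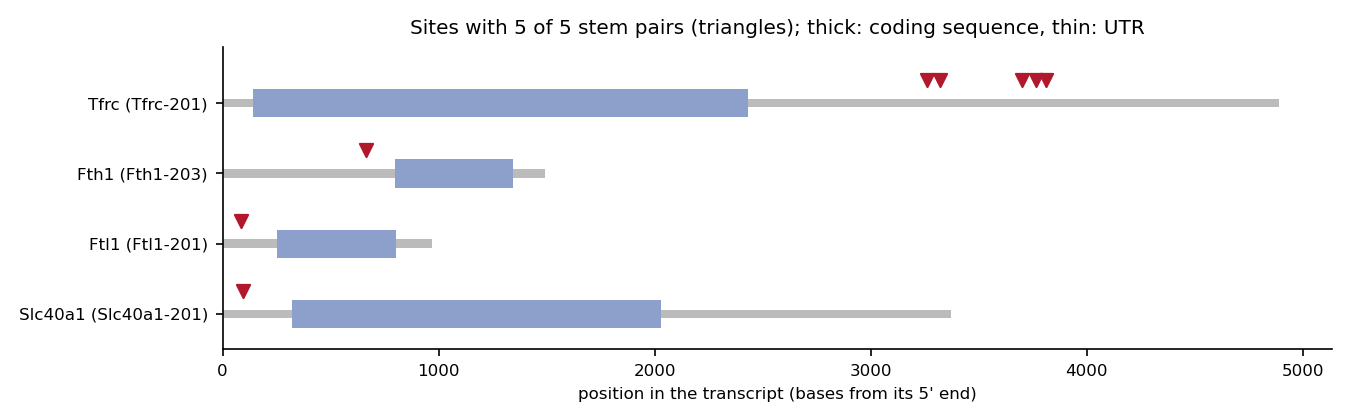
Positions of the hairpin patterns with 5 of 5 pairs (triangles) along the transcripts of Tfrc, Fth1, Ftl1 and Slc40a1, in bases from the 5' end, with coding sequence as thick bars and UTRs as thin ones. The 5 Tfrc sites follow the coding sequence, and the site in each of the other 3 transcripts precedes it.

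Total counts ran from 19256431 to 23499914 in the mutant libraries and from 33838681 to 39736096 in WT. They also differed in make-up, which touches every comparison with WT. In WT 50, 51 and 52 respectively, 27.9%, 14.1% and 11.2% of all counts fell in genes shorter than 1 kb, against 6.92% to 8.97% in the mutant libraries, and genes without a count made up 27.2% to 30.1% in WT against 10.7% to 18.7%. Levels are given as CPM, the counts of a gene relative to the TMM-scaled size of its library. The TMM factors were 0.456, 0.841 and 0.869 in WT 50, 51 and 52, and ran from 1.09 to 1.281 in the mutant libraries. Statements below on which libraries overlap are in this scaled CPM and can differ without the factors. Differences are log2 fold changes with standard errors (SE) from 1 edgeR quasi-likelihood fit over all genes, and a gene is called when its Benjamini-Hochberg adjusted p is under 0.05. A second fit removed a smooth trend with gene length from each library, and its values are called length-offset values. Over all tested genes it moved the median from 0.362 to -0.239 for VF against WT and from 0.355 to -0.152 for E12 against WT, and called 2419 genes higher and 4063 lower in VF against WT where the first fit called 3770 and 2842. For E12 against WT it called 1773 higher and 2772 lower, where the first fit called 3251 and 2466.

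The sorted groups also differed in markers of other stages. The 22 erythroid markers all had counts in each group. They summed to between 25900 and 44100 CPM in WT libraries and between 1260 and 2010 CPM in VF. In E12 1, 2 and 5 they summed to 13200, 9360 and 40900 CPM, and hemoglobin genes took 0.104%, 0.0786% and 3.37% of the counts. Hbb-bs and Hbb-b1 had the same group means, as did Hbb-bt and Hbb-b2, and Hba-a1 and Hba-a2 were nearly alike. The 22 are therefore not all separate markers, and the sums and hemoglobin shares count every row. The 17 megakaryocyte markers summed to between 69.6 and 198 CPM in WT, to between 2280 and 2930 CPM in VF and to between 492 and 605 CPM in E12, and Itgb3, Ppbp, Gp6 and Thbs1 had no count in WT. The 13 markers of stem and multipotent cells summed to between 43.6 and 49.4 CPM in WT, 1630 and 1710 CPM in VF and 364 and 620 CPM in E12. Of 9 genes listed for the MEP gate and MEP transcription factors, Kit averaged 134 CPM in WT, 545 in VF and 315 in E12. Cd34, which is used to exclude other progenitors, averaged 3.63, 660 and 211 in the same order. Fcgr3 averaged 11.5, 48.3 and 6.24, Fcgr2b 5.39, 31 and 11.9, and Ly6a 1.3, 6.64 and 3.09. The transcription factor Gata1 averaged 761, 194 and 434. Gata2 (27.9, 279 and 172), Tal1 (51.8, 103 and 159) and Zfpm1 (7.59, 22 and 31.2) were higher in both mutant groups. The part of these shifts in the results below was not tested, and in bulk RNA fewer cells of a type and less RNA per cell cannot be told apart.

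Of the 10 iron genes, Ncoa4 and Hmox1 were called higher in VF than in WT, and Slc11a2, Steap3, Fth1, Ftl1 and Slc40a1 lower. Hmox1 had no count in WT and was tested only because of its mutant counts, so its calls against WT carry no weight in these numbers. Over all tested genes 27.7% were called higher and 20.9% lower in that comparison. In E12 against WT, 4 members were called higher (Tfrc, Slc25a37, Ncoa4 and Hmox1), where 23.9% of all genes were, and 2 lower (Fth1 and Ftl1), where 18.1% were. In E12 against VF, 4 members were called higher (Tfrc, Slc11a2, Steap3 and Slc40a1) and 0 lower by edgeR, where 2.19% and 1.02% of all genes were. Ncoa4 was lower there at an unadjusted p of 0.023, and DESeq2 and limma on the deposited levels called it lower, while limma-voom called 0. The members' median log2 fold change was -1.03, 0.925 and 1.25 in the 3 comparisons, beside 0.362, 0.355 and -0.0463 over all genes, and the first 2 are the same with Hmox1 at the lower bound of its fold. With the length offset the members' medians were -1.77, 0.05 and 1.37, beside -0.24, -0.15 and 0.06 over all genes. The comparisons share libraries, and so their calls are not independent of each other. All 9 libraries share 1 estimate of spread. With VF and E12 fitted alone, 7 members were called higher in E12 and 1 lower, where 3388 and 3024 of all genes were.

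**Figure D2:**
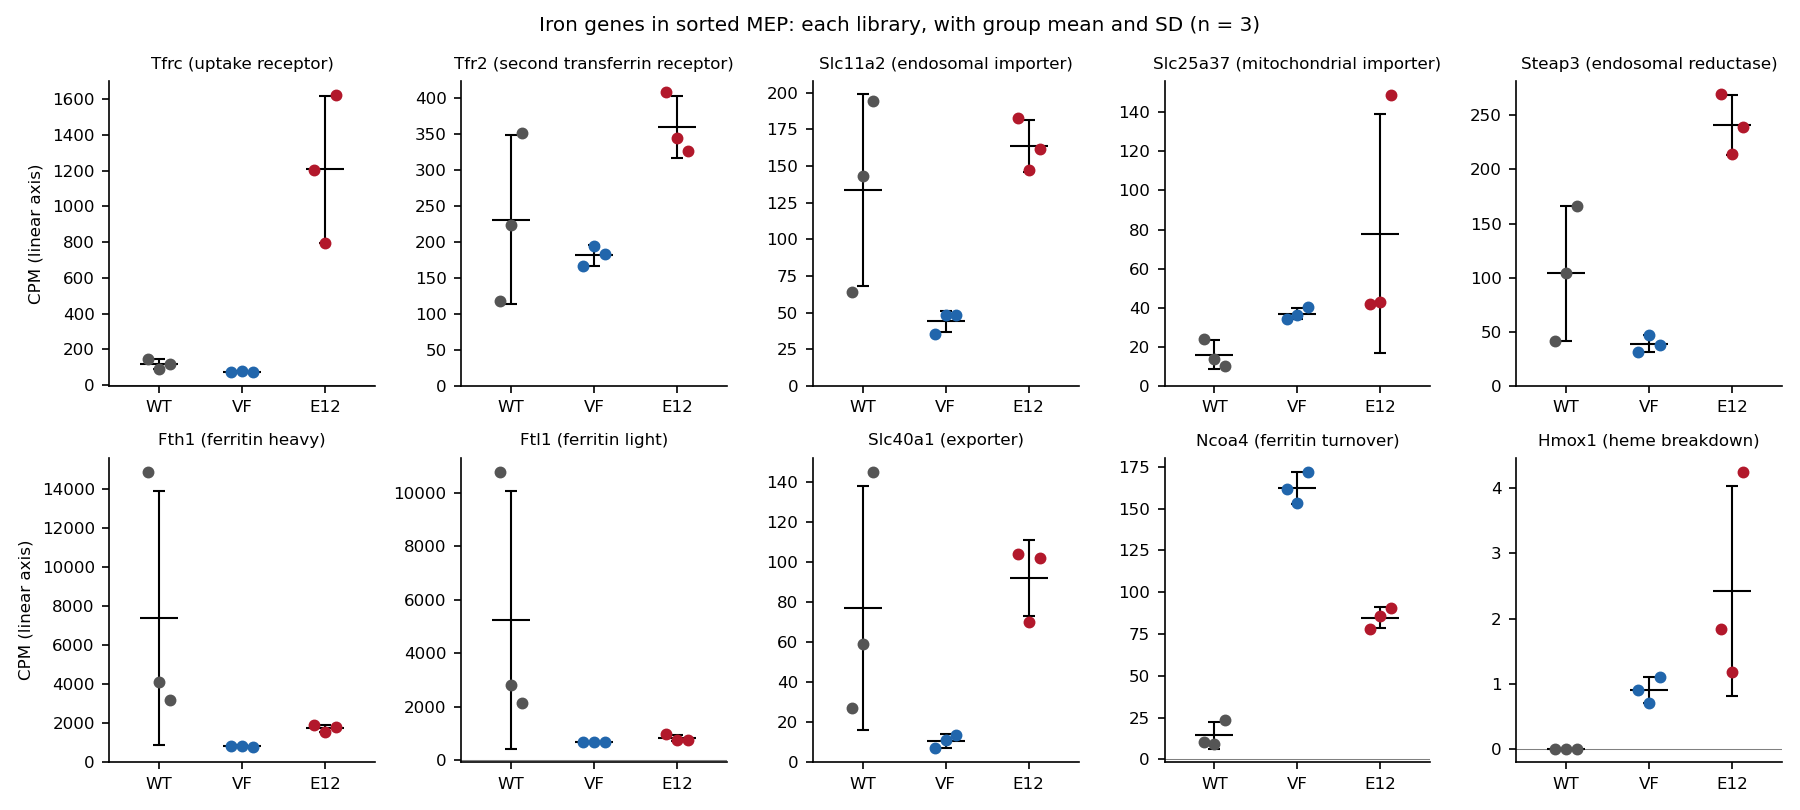
CPM of the 10 iron genes in each library (points, linear axes that differ by gene) with the group mean and SD of 3 libraries. Tfrc stands apart in E12 at 798 to 1621 CPM, both ferritin chains are highest in WT, and Ncoa4 is highest in VF.

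Transferrin receptor 1 was the member with the widest separation between the mutant groups. Tfrc (chr16:32608896-32632794, plus strand) read 145, 89.6 and 120 CPM in WT 50, 51 and 52, then 74.5, 77.6 and 73.8 CPM in VF 1, 2 and 3. In E12 1, 2 and 5 it read 1206, 798 and 1621 CPM. Every E12 library lay several times above all other libraries, and in scaled CPM the VF libraries lay just below WT without overlap. Relative to total counts without the TMM factors, every VF library lay above WT 50 and WT 51 and below WT 52. Tfrc had 1985 of 21115013 counts in VF 1. In WT 50, 51 and 52 it had 2619 of 39736096, 2877 of 38178621 and 3523 of 33838681. The order of VF and WT therefore rests on the factors. Tfrc was 10.2-fold higher in E12 than in WT (log2 fold change 3.36, SE 0.346, edgeR adjusted p = 0.00065). Against VF it was 16.1-fold higher (log2 fold change 4.0, SE 0.357, edgeR adjusted p = 0.0018). The difference between VF and WT was not called (log2 fold change -0.65, SE 0.318, 95% interval -1.36 to 0.07, edgeR adjusted p = 0.12), but leaving out WT 51 gave -1.01 with an adjusted p of 0.049 in edgeR. Length-offset values were -2.05 for VF against WT, called (edgeR adjusted p = 0.0014), and 2.08 for E12 against WT, also called (edgeR adjusted p = 0.0031).

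The second transferrin receptor gave no call in any comparison of the first fit. Tfr2 (chr5:137569822-137588081, plus strand) makes a receptor that senses iron-loaded transferrin and pairs with the erythropoietin receptor in red cell precursors. It read 118, 224 and 352 CPM in WT, 166, 195 and 183 CPM in VF and 408, 344 and 326 CPM in E12. The WT range covered VF and reached into E12, while every E12 library lay above every VF library. E12 against VF gave a log2 fold change of 0.99 (SE 0.368, edgeR adjusted p = 0.20), but 6 of 22 alternatives called it higher. With the length offset it was 1.05 (edgeR adjusted p = 0.018), and in DESeq2 0.94 (adjusted p = 0.03). The 2 groups fitted alone gave 1.02 with an adjusted p of 0.00015 in edgeR, and without WT 50 or WT 52 it was 0.98 with adjusted p-values of 0.0033 and 0.047. VF against WT was -0.35 (edgeR adjusted p = 0.45), and -0.78 (adjusted p = 0.004) without WT 50. E12 against WT was 0.64 (edgeR adjusted p = 0.19), and 0.81 (adjusted p = 0.04) without WT 52. Length-offset values against WT were -1.41 for VF, called (edgeR adjusted p = 0.001), and -0.36 for E12, not called. On the deposited levels VF against WT was 0.54, not called, and E12 against WT 1.38, called (limma adjusted p = 0.0089), so the direction against WT depended on the scaling.

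The endosomal reductase and importer were low in VF and high in E12. Steap3 (chr1:120226414-120271081, minus strand) read 41.2, 105 and 166 CPM in WT, 31.5, 47.4 and 38.1 CPM in VF and 269, 215 and 239 CPM in E12. All E12 libraries were above all others, and VF overlapped WT only at WT 50. It was 6.18-fold higher in E12 than in VF (log2 fold change 2.63, SE 0.458, edgeR adjusted p = 0.022). It was lower in VF than in WT (log2 fold change -1.42, SE 0.440, edgeR adjusted p = 0.025), a call that was lost with those groups alone (adjusted p = 0.07) and without VF 1, 2 or 3 (adjusted p = 0.093, 0.052 and 0.08). E12 against WT gave 1.21 (SE 0.437) at an edgeR adjusted p of 0.05, which before rounding lay above the threshold. Without WT 50 it was 0.72 and without WT 52 1.46, both called (edgeR adjusted p = 0.019 and 0.012). Length-offset values were -2.20 for VF against WT, called, and 0.46 for E12 against WT, not called.

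Slc11a2 (chr15:100387898-100424209, minus strand) read 63.8, 143 and 194 CPM in WT, 35.4, 48.3 and 48.3 CPM in VF and 183, 147 and 162 CPM in E12. In scaled CPM VF lay below every other library, and E12 fell inside the WT range. Relative to total counts without the TMM factors, WT 50 (1155 of 39736096) lay below every VF library, the lowest being VF 1 (945 of 21115013). Every E12 library, the lowest being E12 2 (3860 of 22043786), then lay above the highest WT library, WT 52 (5715 of 33838681). The gene was 3.04-fold lower in VF than in WT (log2 fold change -1.60, SE 0.378, edgeR adjusted p = 0.0079) and 3.72-fold higher in E12 than in VF (log2 fold change 1.90, SE 0.381, edgeR adjusted p = 0.035). The length-offset value for VF against WT was -2.94. E12 against WT was 0.29 (SE 0.369, edgeR adjusted p = 0.55), and with the length offset it turned to -0.88 and was called lower (edgeR adjusted p = 0.034). Reads of the opposite-strand gene Gm5475, which overlaps its exons, cannot be told apart in libraries without strand. The calls of Slc11a2, Steap3 and Slc40a1 between E12 and VF were each lost when any single mutant library was left out. Their log2 fold changes then ran from 1.76 to 1.97 for Slc11a2, 2.50 to 2.79 for Steap3 and 2.89 to 3.34 for Slc40a1, at adjusted p-values of 0.065 to 0.20 in edgeR. Over all genes the calls higher in E12 dropped from 298 to between 18 and 103 in those fits.

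Mitoferrin 1 was higher in E12 than in WT, with 1 library well above the rest. Slc25a37 (chr14:69241848-69285544, minus strand) read 24.1, 13.95 and 10.03 CPM in WT, 34.4, 36.4 and 40.3 CPM in VF and 42.0, 43.0 and 149 CPM in E12. In scaled CPM the groups did not overlap in any pair, and E12 5 was the library apart. Relative to total counts without the TMM factors, VF 3 (994 of 19256431) lay above E12 1 (1076 of 23499914), so VF and E12 overlapped. Hemoglobin genes took 3.37% of the counts in E12 5, against 0.104% in E12 1 and 0.0786% in E12 2, and the part of that difference in the Slc25a37 level was not tested. The log2 fold change of E12 against WT was 2.28 (SE 0.541, edgeR adjusted p = 0.01). It was 1.42 without E12 5 (adjusted p = 0.031), 1.96 without WT 51 (adjusted p = 0.058) and 1.01 with the length offset (edgeR adjusted p = 0.23). VF against WT was 1.21 (edgeR adjusted p = 0.084; -0.15 with the length offset) and was called without WT 50 (1.48, adjusted p = 0.048) or without E12 5 (1.22, adjusted p = 0.023). E12 against VF was 1.07 (SE 0.521, edgeR adjusted p = 0.33), and 0.20 without E12 5. Gm31748 and Gm27223 overlap its exons on the opposite strand.

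**Figure D3:**
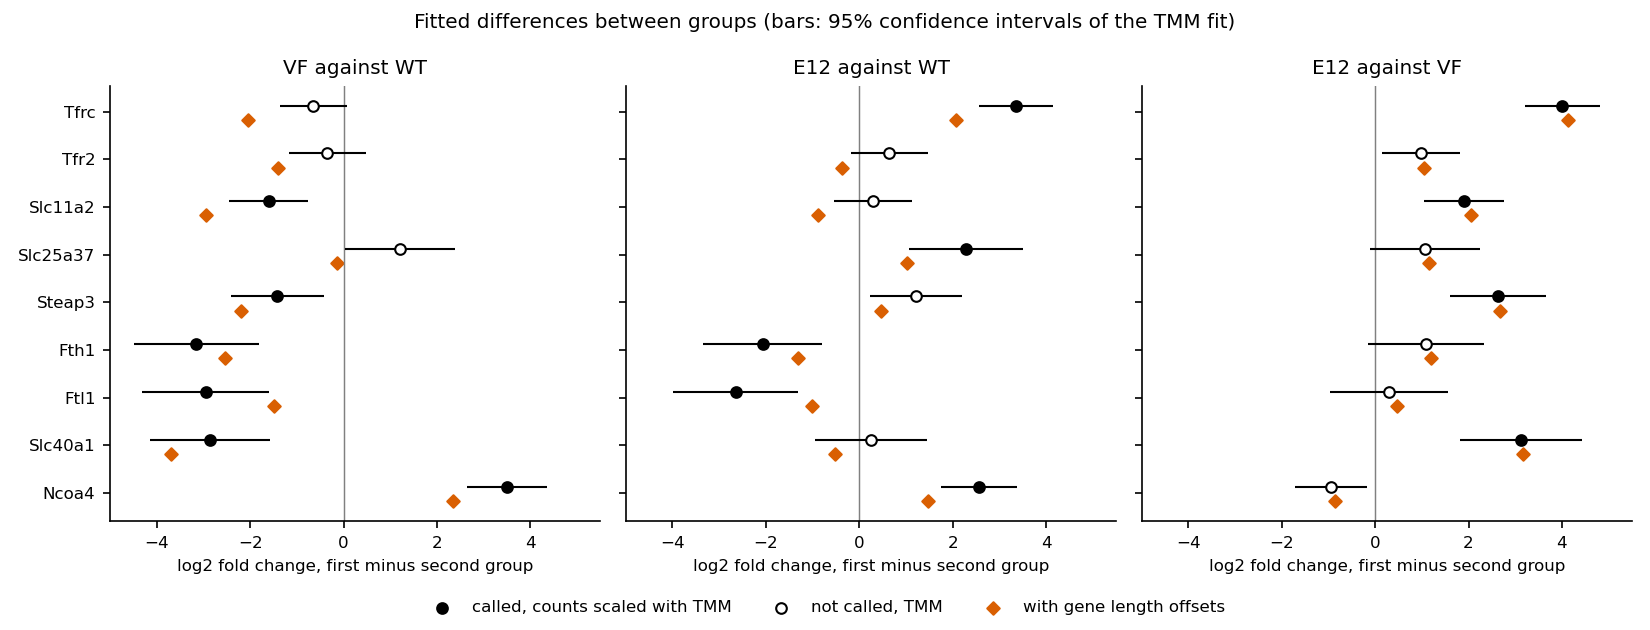
Log2 fold changes of 9 iron genes in the 3 comparisons (circles, filled where called, with 95% intervals) and the length-offset values (diamonds). Hmox1 is left out because WT had no count. E12 against VF gives nearly the same value in both fits, while in the comparisons with WT the diamonds of both ferritin chains lie closer to 0 and those of Tfrc and Slc11a2 lie lower.

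Both ferritin chains were lower in the mutant groups than in WT. The heavy chain, which oxidises the iron that enters the shell, is made by Fth1 (chr19:9980600-9985111, plus strand). It read 14870, 4109 and 3182 CPM in WT, 851, 866 and 765 CPM in VF and 1921, 1560 and 1787 CPM in E12. The lowest WT library was above every mutant library, and every E12 library was above every VF library. WT 50 alone stood over 3 times above the other WT libraries. The log2 fold change was -3.16 in VF against WT (SE 0.593, edgeR adjusted p = 0.003) and -2.07 in E12 against WT (SE 0.567, edgeR adjusted p = 0.018). Without WT 50 these were -2.28 and -1.20, and without WT 52 they were -3.83 and -2.75, all called. The E12 call was lost without E12 1, 2 or 5 (edgeR adjusted p = 0.056, 0.073 and 0.061), with E12 and WT alone (0.071) and on the deposited levels, where the value was -0.41 (limma adjusted p = 0.27).

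The light chain, which helps the iron core form, followed the heavy chain. Ftl1 (chr7:45457944-45459886, minus strand) read 10780, 2816 and 2140 CPM in WT, 686, 677 and 670 CPM in VF and 971, 768 and 770 CPM in E12. No mutant library reached the lowest WT library, and the VF libraries lay within a few percent of each other. The log2 fold change was -2.95 in VF against WT (SE 0.602, edgeR adjusted p = 0.0043) and -2.65 in E12 against WT (SE 0.594, edgeR adjusted p = 0.0085). Without WT 50 the values were -2.01 and -1.71, without WT 51 -3.54 and -3.24 and without WT 52 -3.64 and -3.34, all called. Length-offset values were -1.48 and -1.02 for Ftl1 and -2.53 and -1.32 for Fth1, all called. On the deposited levels VF against WT was -1.34 for Fth1 and -1.07 for Ftl1, and E12 against WT was -0.96 for Ftl1, also called by limma (adjusted p = 0.004, 0.0052 and 0.012). The authors' gene lengths are 970 bases for Ftl1 and 1511 for Fth1, and the share of counts in genes under 1 kb was also highest in WT 50, at 27.9%. E12 against VF was not called for Fth1 (1.09, SE 0.552, edgeR adjusted p = 0.36) or Ftl1 (0.30, SE 0.559, edgeR adjusted p = 0.83). With those groups fitted alone both were called, at 1.12 (adjusted p = 7.1e-05) and 0.33 (adjusted p = 0.02) in edgeR, and Fth1 was also called without WT 50 (1.08, adjusted p = 0.0029). The annotation holds 5 ferritin pseudogenes by name, and Gm22133 and Gm10252 overlap exons of Ftl1, so these counts may be shared with copies in a way the sources used here do not give.

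Ncoa4, the receptor that delivers ferritin to lysosomes, was high in both mutant groups. Ncoa4 (chr14:32159879-32179855, plus strand) read 10.7, 8.94 and 23.4 CPM in WT, 162, 153 and 172 CPM in VF and 77.8, 85.8 and 90.3 CPM in E12. The 3 groups were in the order WT, E12, VF with no overlap. The gene was 11.3-fold higher in VF (log2 fold change 3.50, SE 0.377, edgeR adjusted p = 0.00033) and 5.91-fold higher in E12 (log2 fold change 2.56, SE 0.362, edgeR adjusted p = 0.0018) than in WT. The length offset lowered these to 2.34 and 1.48, both called (edgeR adjusted p = 0.00017 and 0.0027). E12 against VF was -0.94 (SE 0.344, edgeR adjusted p = 0.19), and was called lower with those groups alone (-0.90, adjusted p = 0.00022) and without WT 50 or WT 52 (-0.94 in both, adjusted p = 0.032 and 0.017).

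Ferroportin was lowest in VF. Slc40a1 (chr1:45908070-45926532, minus strand) read 27.4, 59.3 and 145 CPM in WT, 6.98, 11.2 and 13.7 CPM in VF and 104, 70.2 and 102 CPM in E12. In scaled CPM every VF library lay below every library of the other groups, and E12 lay inside the wide range of WT. Relative to total counts without the TMM factors, VF and WT overlapped, with WT 50 between VF 1 and VF 2. Slc40a1 had 496 of 39736096 counts in WT 50, 186 of 21115013 in VF 1 and 301 of 21331168 in VF 2. It was 7.27-fold lower in VF than in WT (log2 fold change -2.86, SE 0.571, edgeR adjusted p = 0.0039), with a length-offset value of -3.69. It was 8.66-fold higher in E12 than in VF (log2 fold change 3.12, SE 0.577, edgeR adjusted p = 0.027). E12 and WT differed by 0.25 (SE 0.530, 95% interval -0.94 to 1.45, edgeR adjusted p = 0.73), an interval that leaves room for a change in either direction. Erythroid markers were low in the same VF libraries (1260 to 2010 CPM), and the part of this in the Slc40a1 level was not tested.

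Heme oxygenase 1, which breaks heme down and frees its iron, was near the limit of detection. Hmox1 (chr8:75093618-75100593, plus strand) had 0 counts in all 3 WT libraries, 24, 19 and 27 counts in VF 1, 2 and 3 and 47, 31 and 98 counts in E12 1, 2 and 5. It passed the filter on low counts only through the mutant libraries. A gene that enters this way had to differ from WT, so no p is given. With 3 counts over the WT group as the floor (0.0377 CPM), it was at least 23.8-fold higher in VF and at least 62.4-fold higher in E12. E12 against VF was not called (log2 fold change 1.42, SE 0.776, edgeR adjusted p = 0.41), and was 0.74 without E12 5. Macrophages are the cells best known for Hmox1, and of 15 macrophage markers 10 had counts in WT, 10 in VF and 15 in E12. They summed to 43.7, 4.05 and 17.6 CPM in WT 50, 51 and 52, 59.5 to 81.9 CPM in VF and 32.2, 30.1 and 108 CPM in E12 1, 2 and 5. Hmox1 itself read 0.708 to 1.095 CPM in VF and 1.84, 1.18 and 4.255 CPM in E12 1, 2 and 5. Different genes make up the marker sums in different groups, with Csf1r and Cd68 averaging 39.6 and 24.6 CPM in VF and C1qb 0.233 CPM. In E12 these averaged 18.7, 11.6 and 10.4 CPM. The sums therefore cannot rank the libraries by macrophage content, and the part of such cells in the Hmox1 level was not tested. Csf1r ran from 0 to 9.05 CPM in WT, from 32.3 to 44.8 CPM in VF and from 14.5 to 21.1 CPM in E12. C1qb reached up to 7.62 CPM in WT, 0.324 in VF and 29.1 in E12. Mrc1, Timd4, Mertk, Marco and Siglec1 had no count in WT, and Timd4, Mertk, Cd5l, Marco and Siglec1 none in VF.

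Per kilobase of the authors' gene length, ferritin was the most abundant of the 10 in every group. In WT the light and heavy chains averaged 5408 ± 4954 and 4890 ± 4301 RPKM (SD, n = 3), with Tfr2 next at 60.2 ± 30.6 RPKM. In VF they averaged 699 ± 8.37 and 547 ± 36 RPKM, followed by Tfr2 at 47.2 ± 3.73 and Ncoa4 at 38.7 ± 2.25 RPKM. In E12 they averaged 862 ± 120 and 1162 ± 121 RPKM, followed by Tfrc at 246 ± 83.8 and Tfr2 at 93.6 ± 11.3 RPKM. The order of the chains thus differed between E12 and the other groups. In WT 50, 51 and 52 the light chain read 11110, 2903 and 2206 RPKM and the heavy chain 9843, 2720 and 2106 RPKM. With the length offset, the log2 difference of Fth1 per Ftl1 between E12 and WT turned from 0.576 to -0.305. The change of order against WT therefore rests on that choice. Slc40a1 was last but one in VF, at 3.15 ± 1.01 RPKM, above Hmox1 at 0.572 ± 0.123 RPKM.

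**Figure D4:**
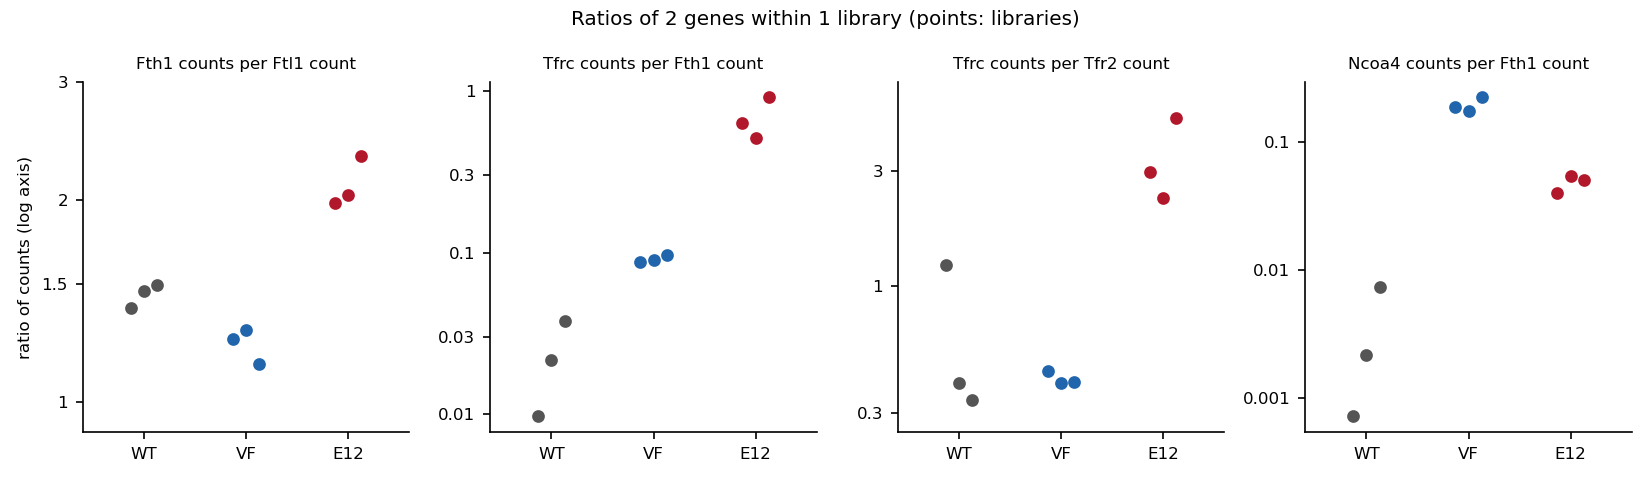
Ratios of the counts of 2 iron genes within each library (points, log axes). Tfrc per Fth1 count rises in the order WT, VF, E12, Ncoa4 per Fth1 count in the order WT, E12, VF, and Fth1 per Ftl1 count is above 1.9 in E12 alone.

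Ratios within a library do not depend on the scaling factors of the libraries, but they do depend on the length make-up where the genes differ in length. Fth1 per Ftl1 count was 1.38, 1.46 and 1.49 in WT, 1.24, 1.28 and 1.14 in VF and 1.98, 2.03 and 2.32 in E12, so that the excess of heavy chain counts was largest in E12. Tfrc per Fth1 count was 0.00972, 0.0218 and 0.0376 in WT, 0.0875, 0.0896 and 0.0965 in VF and 0.628, 0.511 and 0.907 in E12. Ncoa4 per Fth1 count was 0.000716, 0.00218 and 0.00734 in WT, 0.19, 0.177 and 0.225 in VF and 0.0405, 0.055 and 0.0505 in E12. For these 3 ratios no pair of groups overlapped, which in an exact two-sided permutation test of 3 against 3 gives p = 0.1, the smallest value it allows. None of the 12 ratio comparisons could therefore pass 0.05. From WT to VF and from WT to E12, Tfrc per Fth1 differed by 2.51 and 5.43 (log2) in the first fit and by 0.47 and 3.40 with the length offset. Fth1 per Ftl1 differed between E12 and WT by 0.58 in the first fit and by -0.31 with the offset, so its direction against WT rests on that choice. Ncoa4 per Fth1 differed by 6.66 in VF and 4.63 in E12 against WT, and by 4.87 and 2.81 with the offset. Between E12 and VF the values with and without the offset were 2.93 and 2.92 for Tfrc per Fth1, 0.74 and 0.78 for Fth1 per Ftl1, and -2.06 and -2.03 for Ncoa4 per Fth1. Tfrc per Tfr2 count was 2.95, 2.32 and 4.97 in E12 against 0.398 to 0.447 in VF and 1.23, 0.4 and 0.34 in WT. VF and WT overlapped in that last ratio (exact permutation p = 0.9), and WT 50 was the library apart.

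The members other than Hmox1, which was left out for its low counts, differed in how alike their profiles were across the 9 libraries. Likeness was measured as the root mean square difference of log2 CPM, each gene centred on its own mean, and is a description with no test. It was taken without the length offset, so the length make-up of the libraries enters it where genes differ in length, as ferritin and Ncoa4 do. The ferritin chains were the closest pair (0.34), then Slc11a2 and Steap3 (0.44), Tfr2 and Slc11a2 (0.54), and Steap3 and Slc40a1 (0.62). Ferritin and Ncoa4 were the farthest, at 2.8 for both chains. Among 8986 other genes, Rnf128, Oaf and Sptb, a red cell membrane skeleton gene, were nearest to Tfrc (0.64, 0.75 and 0.77). Kel, the Kell blood group protein, Spire1 and Ces2g were nearest to Slc40a1 (0.39, 0.42 and 0.43). Prkacb, Cdc14a and Rassf5 were nearest to Ncoa4 (0.17, 0.19 and 0.21).

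Promoter sequences in a RefSeq table (GRCm38, 250 bases before to 50 after each start) were held for 6 of the 10 members and were searched on both strands for GATAA, the core that GATA factors such as Gata1 bind. At least 1 match occurred in 1 of 3 windows of Tfr2, 2 of 4 of Steap3, 1 of 2 of Fth1 and 2 of 3 of Ncoa4. None occurred in the 2 windows of Tfrc or the 1 of Ftl1, beside 25.4% of all 32851 windows.

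Genes around the members were described from lists chosen by function, whose counts stand beside 27.7% higher and 20.9% lower over all genes in VF against WT, 23.9% and 18.1% in E12 against WT, and 2.19% and 1.02% in E12 against VF. Of 9 tested genes of iron sensing, 3 were called higher and 1 lower in VF than in WT, 2 and 1 in E12 than in WT, and 0 in E12 against VF by edgeR. With the length offset 1 was higher and 3 lower in VF, and 2 higher and 3 lower in E12, so the balance against WT turned. At an unadjusted p under 0.05, 2 were higher and 0 lower in E12 than in VF. DESeq2 and limma on the deposited levels each called 1 higher there, and limma-voom 0. Hif1a, the oxygen- and iron-dependent transcription factor, rose to 105 ± 11.2 CPM in VF and 83.3 ± 14.8 CPM in E12 from 12.6 ± 5.98 CPM in WT (log2 fold changes 3.06 and 2.72, edgeR adjusted p = 0.00057 and 0.0016, length-offset values 1.77 and 1.57). Of the hairpin-binding proteins, Ireb2 averaged 13.8 ± 6.85 CPM in WT, 34.7 ± 2.61 in VF and 35.2 ± 4.41 in E12. It was called higher in VF and E12 than in WT (log2 fold changes 1.33 and 1.35, edgeR adjusted p = 0.019 and 0.021), but length-offset values were -0.13 and 0.05, not called. The VF call was lost without VF 2, VF 3 or WT 52 (edgeR adjusted p = 0.054, 0.053 and 0.07), and the E12 call without E12 1, E12 5, WT 51 or WT 52 (0.053, 0.063, 0.051 and 0.07). Without WT 51 the values were 0.78 and 0.80. Aco1 was not called in any comparison, at 52.2 ± 30.8 CPM in WT, 39.7 ± 1.75 in VF and 64.2 ± 4.94 in E12. With the length offset it was called lower in VF (-1.57, edgeR adjusted p = 0.0011) and E12 (-0.78, edgeR adjusted p = 0.035) than in WT. Without WT 52 it was called higher in E12 than in WT (0.61, edgeR adjusted p = 0.018) and than in VF (0.69, edgeR adjusted p = 0.032).

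Of 9 tested genes of the hepcidin axis, 4 were called higher in VF and 3 in E12 than in WT (3 and 2 with the length offset), and 1 was called higher in E12 than in VF. That last gene was Erfe, erythroferrone, a hormone of erythroid precursors that lowers hepcidin in the liver. It read 0.166, 1.68 and 2.65 CPM in WT, 0.975, 1.34 and 1.70 CPM in VF and 22.9, 16.7 and 28.3 CPM in E12. As with Tfrc, every E12 library lay far above all others. The log2 fold change was 3.90 against WT (SE 0.806, edgeR adjusted p = 0.0066), and 3.28 without WT 50. Against VF it was 4.07 (SE 0.814, edgeR adjusted p = 0.034), and the call was lost without any single mutant library (3.88 to 4.28, adjusted p = 0.093 to 0.20). Hfe, which binds transferrin receptor 1, read 10.1, 11.6 and 13.6 CPM in VF and 2.19, 3.92 and 5.73 CPM in E12, and had 2 counts in WT 51 and 0 in the other WT libraries. It is among the calls against WT, but passed the filter only through the mutant libraries, so its p-values are not given. The same holds for Acvr1, called in VF and E12, at 0.0311 CPM in WT, 1.61 in VF and 0.641 in E12. Bmpr1a, called in VF, also entered this way, at 0 CPM in WT and 0.68 in VF. The calls of Hfe, Acvr1 and Bmpr1a against WT carry no weight in the counts of this list.

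Of 13 tested genes of other iron transport, 2 were called higher and 2 lower in VF than in WT, 1 and 1 in E12 than in WT, and 1 higher in E12 than in VF. The length offset left the counts of VF against WT as they were and called 1 lower in E12 than in VF. Trf, transferrin itself, read 250, 262 and 263 CPM in VF, 85.3, 79.7 and 49.0 CPM in E12 and 5.36, 42.8 and 20.1 CPM in WT. Its log2 fold change in VF against WT was 3.50 (SE 0.639, edgeR adjusted p = 0.0027), with 2.87 without WT 50 and 4.24 without WT 51. Exoc6, an exocyst subunit that returns transferrin receptor to the cell surface, was 66.1 ± 1.34 CPM in VF and 93.0 ± 8.14 CPM in E12 against 25.2 ± 10.3 CPM in WT, and was called in both (log2 fold changes 1.39 and 1.88, edgeR adjusted p = 0.0054 and 0.0028, length-offset values 0.74 and 1.29).

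**Figure D5:**
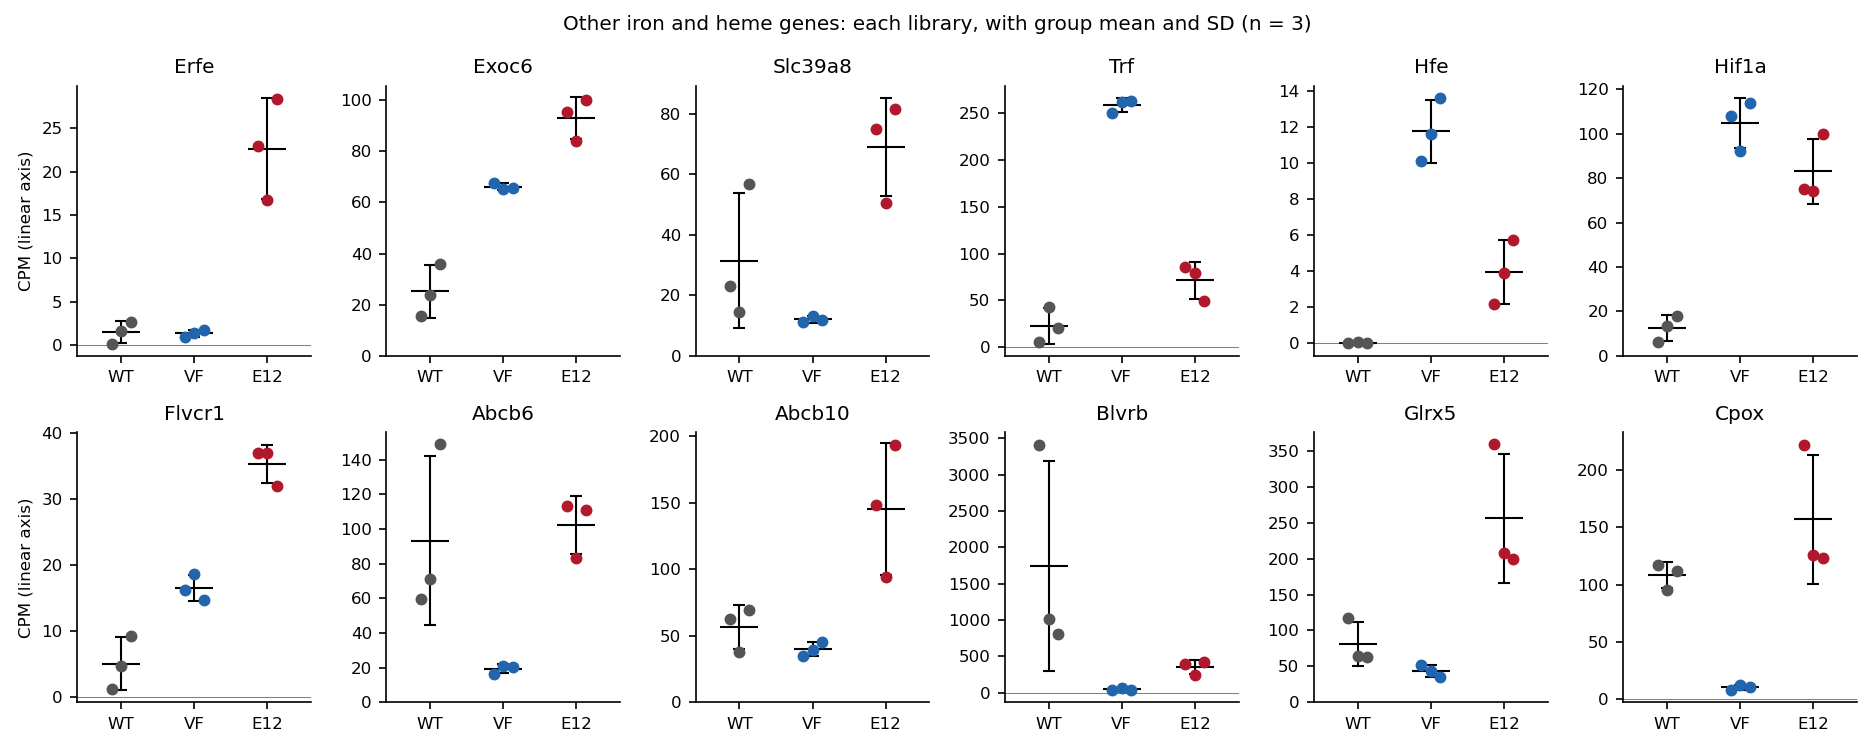
CPM of 12 other iron and heme genes in each library (points, linear axes that differ by gene) with the group mean and SD of 3 libraries. Erfe is at 16.7 to 28.3 CPM in E12 and below 3 CPM elsewhere, and Trf is highest in VF.

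Most calls among genes of heme synthesis and of iron-sulfur cluster assembly were lower in the mutants than in WT. Of 13 tested genes of heme synthesis, 1 was called higher and 8 lower in VF than in WT, 6 lower in E12 than in WT, and 3 higher in E12 than in VF. With the length offset 9 were lower in VF and 5 in E12 than in WT, and 7 higher in E12 than in VF. Cpox, a late enzyme of the pathway, averaged 108 ± 11.1 CPM in WT, 10.6 ± 2.39 in VF and 157 ± 56.4 in E12. It was lower in VF than in WT (log2 fold change -3.36, SE 0.322, edgeR adjusted p = 0.00022, length-offset value -4.35) and higher in E12 than in VF (3.89, SE 0.330, edgeR adjusted p = 0.0017). Of 17 tested genes of iron-sulfur cluster assembly, 12 were called lower in VF than in WT, 10 lower and 1 higher in E12 than in WT, and 2 higher in E12 than in VF, with 12, 9, 1 and 3 in the same order with the offset. Lyrm4 was 61.2 ± 11.4 CPM in VF against 439 ± 171 CPM in WT (log2 fold change -2.84, edgeR adjusted p = 0.00052). Of 14 tested genes of heme traffic and breakdown, 2 were called higher and 4 lower in VF than in WT, 3 and 5 in E12 than in WT, and 3 higher in E12 than in VF. With the length offset 8 were lower in VF than in WT and no gene was called higher, and in E12 against WT 1 was higher and 5 lower. Blvrb, a biliverdin and flavin reductase, had 48.1 ± 12.0 CPM in VF against 1740 ± 1450 CPM in WT (log2 fold change -5.17, edgeR adjusted p = 0.00054, with -4.37 without WT 50, -5.83 without WT 52 and a length-offset value of -3.78). Of 22 erythroid genes, repeated hemoglobin rows included, 21 were called lower in VF than in WT and 21 higher in E12 than in VF. In E12 against WT, 3 were called higher and 4 lower (median log2 fold change 0.771). The part of these shifts in the counts of the lists was not tested.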

How the data were processed

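RNA from sorted MEP was extracted with a PicoPure kit and made into Smart-Seq2 libraries, per the labels' protocols, which copy whole transcripts without molecular identifiers or strand. The authors deposited whole-number counts per gene with a gene length in bases, and expression levels on a log2 scale. STAR, limma and the builds GRCm38 and mm10 are named in the submitters' processing notes without roles or versions. How reads were assigned to genes is not given in the sources used here. In each library, the order of the log2 levels was that of the deposited counts.

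The count test was edgeR 4.0.16 (R 4.3.3), on unscaled counts. The steps were filterByExpr (13608 of 17769 genes), TMM factors and 1 quasi-likelihood fit of 9 libraries with group as the only term. Tests are two-sided, with Benjamini-Hochberg adjustment across the 13608 genes and a threshold of 0.05. RPKM were computed from the counts and the authors' length. The length offset is a lowess curve (span 0.3) per library. The fits were tested on simulated data. Alternatives were RLE and upper-quartile factors, library sizes without hemoglobin genes, other filters, the length offset, DESeq2 1.42.0, limma-voom and limma 3.58.1 on the deposited levels, fits of 2 groups, leaving out WT 50 and E12 5 together or each library, and a replicate block. A fit of the block's 7 libraries without the block was added after seeing the data.

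The members and gene lists were chosen with earlier results of these data known. Named are all 10 members, and from each function list genes among the 2 called per direction and comparison with the smallest p, together with the 3 genes most like Tfrc, Slc40a1 and Ncoa4 among those of at least 10 CPM. Aco1 and Ireb2 in all comparisons were named for their role after their values were seen. Acvr1, Bmpr1a, the repeated hemoglobin rows and the MEP gate genes other than Kit, Gata1 and Cd34 were also named after their values were seen. Lists of neutrophil and monocyte, mast and basophil, and lymphoid markers summed to 535 to 8640, 28.9 to 122 and 454 to 4880 CPM in WT, 7620 to 13800, 357 to 456 and 633 to 820 in VF, and 2220 to 2450, 43.3 to 208 and 247 to 723 in E12. Figures were drawn with matplotlib 3.10.9.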

Additional observations from a re-analysis of the deposited data

How the results depend on the processing

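The number of iron genes called kept within 1.5 times under most alternatives, though the genes called could change. With the length offset, Slc25a37 was no longer called in E12 against WT, and Slc11a2 was called lower. VF against WT gave 1 higher with at least 10 counts in every library, where Hmox1 could not be tested. E12 against WT gave 1 lower on the deposited levels and with the 2 groups alone, and 1 to 2 lower when single libraries were left out. E12 against VF gave 1 lower with the length offset, DESeq2, the deposited levels and the 2 groups alone, and 0 to 1 when single libraries were left out. Its number higher was 7 with the 2 groups alone. It was 1, Tfrc, when any 1 mutant library was left out, and up to 6 when a WT library was. The cause was not tested. Replicate numbers 1 and 2 occur in both VF and E12, and same-numbered libraries deviated together with correlations of 0.0097 and 0.1, so that the numbers are not shown to pair them. With the replicate block on 7 libraries 0 members were called higher, and 0 in the same libraries without the block, with 0 genes called at all in both fits. Of single genes, with the length offset Slc11a2 in E12 against WT turned from 0.29 to -0.88, Aco1 in E12 against WT from 0.30 to -0.78 and Ireb2 in VF against WT from 1.33 to -0.13. Snx3, an endosomal sorting gene, turned in E12 against WT from -1.25 to 0.00338 on the deposited levels. Tfrc in E12 against WT (2.08 to 3.86) and Ncoa4 in VF (2.34 to 3.77) and E12 (1.48 to 2.83) against WT were called higher in 20 of 20 alternatives. Slc11a2, Fth1, Ftl1 and Slc40a1 were called lower in VF against WT in 20 of 20. Depth limits Hmox1 most, since 0 counts over WT allow up to 0.0377 CPM.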
